A study of Rattus norvegicus with 20 samples.

Results

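Potassium channel genes were read in neonatal rat heart cultures exposed to celecoxib, an inhibitor of cyclo-oxygenase 2 that is also known to block voltage-gated potassium channels. The members were all genes on the array whose symbol starts with Kcn, each read by its brightest probe. That gave 86 genes among 35561 on the array. By subfamily, 39 encode pore subunits of voltage-gated channels, 11 their accessory subunits, 15 inward rectifiers, 10 tandem-pore (Kcnk) channels and 11 calcium- or sodium-activated channels or their subunits.

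RNA was measured on 20 single-colour arrays of primary cultures of neonatal rat heart, labelled as cardiomyocytes, that had grown for 1 day. Celecoxib was given at reference concentrations of 1/25, 1/5 or 1 for 6 h or 24 h, with 3 arrays in each of the 6 groups, and 2 arrays were untreated. The labels give no absolute concentration, no vehicle, and no time for the untreated cultures, which are therefore the same pair of arrays in all comparisons at both times. Whether the replicates came from different cultures is not given, so a p-value reflects the scatter of these arrays alone, and that scatter may be technical. Every array had all 8 cardiomyocyte markers well above background, and likewise 5 of 7 fibroblast and 3 of 3 smooth muscle markers, so the cultures held RNA of several heart cell types. In bulk RNA, fewer cells of a type and less RNA per cell cannot be told apart.

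Potassium channels let potassium leave the cell and so end the action potential and hold the resting potential. In heart muscle, voltage-gated channels carry the transient outward and delayed rectifier currents, inward rectifiers of the Kcnj genes set the resting potential, and tandem-pore channels give a background current. Accessory subunits of the Kcne and Kcnip genes tune the gating and the surface level of the pore subunits. RNA levels on an array say nothing about channel block.

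Levels are log2 of the processed signal minus log2 of the 75th percentile of the array, so 0 is as bright as that percentile, and levels of different probes are not compared. A difference is called at an adjusted p below 0.05 in limma, adjusted over all genes tested, and errors after ± are standard errors of the fit. A fold given as "at least" compares plain group means without the scan day term, while the adjusted p beside it is from the fit. For that fold, the group with no array well above background had lower readings raised to the array's lowest signal well above background. Arrays were scanned on 2 days, and a term for scan day was part of the fit. All untreated and all 24 h arrays, 2 arrays of celecoxib 1 for 6 h and 1 array of celecoxib 1/25 for 6 h were scanned on the first day, while the other 6 arrays of 6 h were scanned on the second. No slide held arrays of both days, so scan day, slide and anything else that differed between the 2 sets cannot be told apart. Scan day made up 97.9% of the first principal component, which carried 30.1% of all variance. Of the 55 Kcn genes tested, 13 differed between the days, against 32.4% of all genes. Untreated replicate 1 and celecoxib 1/25 6 h replicate 3 stood apart, with mean correlations to the other arrays of 0.887 and 0.888, against 0.924 to 0.947 for the other 18 arrays.

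Of the 86 Kcn genes, 23 (26.7%) were well above background on all 20 arrays, against 56.7% of all genes, and 11 (12.8%) on none, against 7.78%. Inward rectifiers were read most often, with 7 of 15 on all 20 arrays, among them Kcnj2 and Kcnj12 of the resting current, Kcnj3 and Kcnj5 of the acetylcholine-activated current, and Kcnj8 and Kcnj11 of the ATP-sensitive current. The inward rectifiers Kcnj1, Kcnj6, Kcnj14 and Kcnj16 were on no array. Among voltage-gated pore subunits 10 of 39 were on all 20 arrays, including Kcna4 and Kcnd3. Of the calcium- or sodium-activated group only Kcnn4, the calcium-activated channel of intermediate conductance, reached all 20. Kcnn2, a small-conductance calcium-activated channel, was on no array, Kcnma1, the large-conductance pore subunit, on 1, and Kcnd2, a pore subunit of the transient outward current, on 12 without filling any group, so these 3 were not tested.

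A gene was tested where some group had its probe well above background on each of the group's arrays, which held for 55 Kcn genes. Of these, 23 passed in all 7 groups, 4 through the untreated arrays alone (Kcna1, Kcnc1, Kcnip2 and Kcnmb1) and 10 through celecoxib 1/5 for 6 h alone. Passing only through the group where a gene was bright favours a difference. Counts over the 55 are therefore descriptions of the genes that passed. The number of Kcn genes well above background ran from 32 to 62 per array in the celecoxib groups, against 63 and 37 on the 2 untreated arrays. The share of all genes varied too, from 64.8% to 83.5% in the celecoxib groups, against 82.9% and 67.6% on the untreated arrays. The map of probes shows the first untreated array as high for many dim genes.

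**Figure D1:**
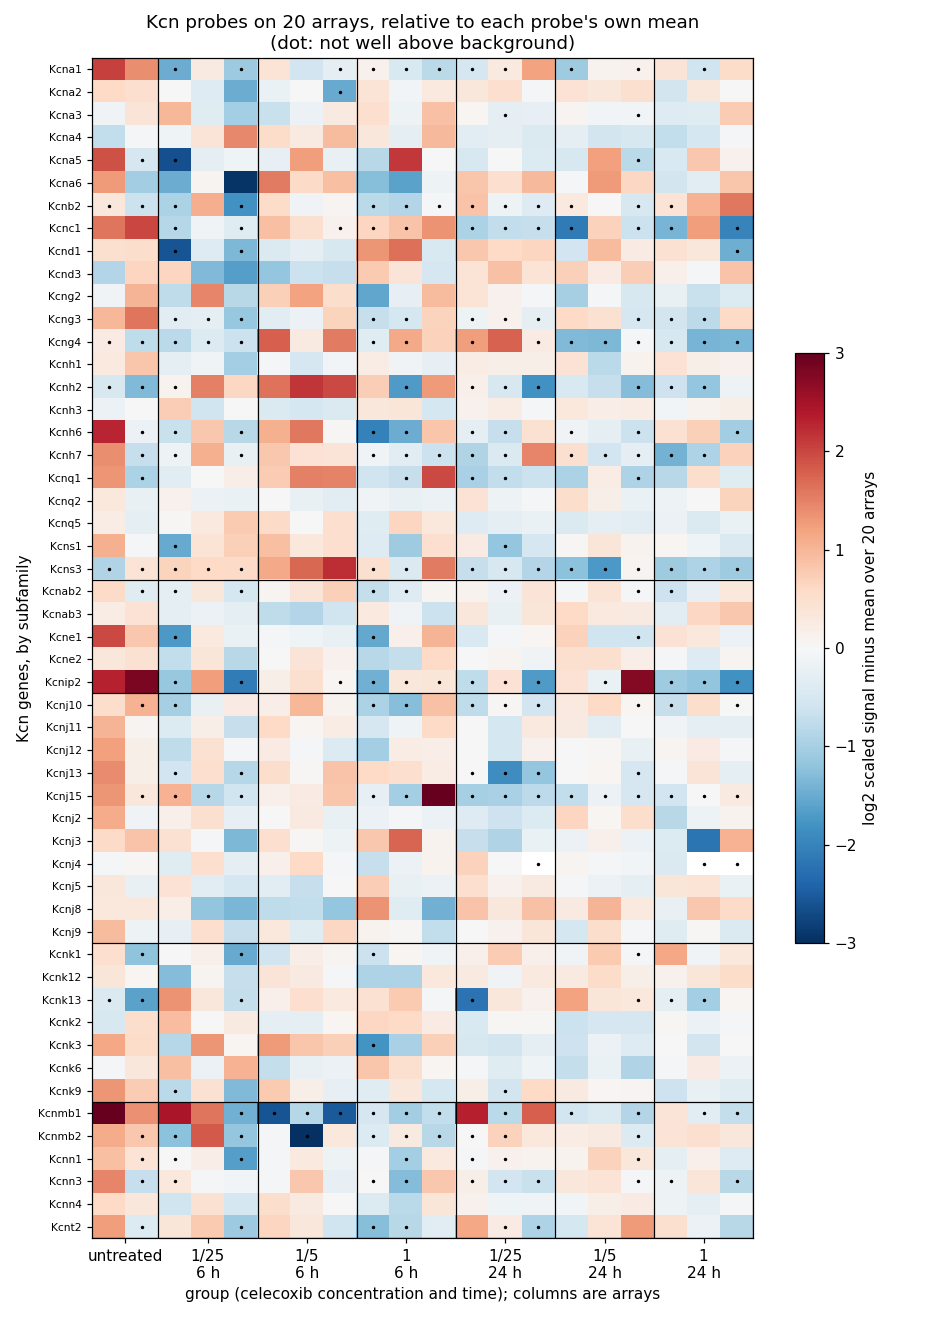
Each row is one of the Kcn genes that passed the signal filter, each column an array, and the colour is the log2 scaled signal minus the mean of that probe over the 20 arrays, with a dot where the probe was not well above background and white where it has no value. Kcne1 and Kcnip2 are high on the untreated arrays, and dots crowd the rows of dim genes.

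The windows before the starts of 5 genes are shown because these were called lower than untreated after 6 h and RefSeq's table of promoters (GRCr8) holds them. They are the 250 bases before the annotated start, read along the gene, with motif matches in capitals.
Kcne1, chr11:45077034-45077283, minus strand: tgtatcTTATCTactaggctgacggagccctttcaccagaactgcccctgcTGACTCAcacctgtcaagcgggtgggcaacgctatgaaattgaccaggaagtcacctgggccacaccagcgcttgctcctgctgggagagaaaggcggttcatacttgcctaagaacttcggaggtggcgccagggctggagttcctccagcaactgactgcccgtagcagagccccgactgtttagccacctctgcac
Kcng3, chr6:16803592-16803841, plus strand: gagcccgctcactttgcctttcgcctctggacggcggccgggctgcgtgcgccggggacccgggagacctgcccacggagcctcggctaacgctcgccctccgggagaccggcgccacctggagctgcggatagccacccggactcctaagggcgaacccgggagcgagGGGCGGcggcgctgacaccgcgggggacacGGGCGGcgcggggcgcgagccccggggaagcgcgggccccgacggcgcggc
Kcnip2, chr1:254613899-254614148, minus strand: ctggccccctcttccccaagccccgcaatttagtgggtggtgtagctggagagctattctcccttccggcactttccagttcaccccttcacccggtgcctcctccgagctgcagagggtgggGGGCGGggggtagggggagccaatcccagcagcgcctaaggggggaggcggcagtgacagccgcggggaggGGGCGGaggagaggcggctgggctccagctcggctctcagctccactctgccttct
Kcnj10, chr13:87334260-87334509, plus strand: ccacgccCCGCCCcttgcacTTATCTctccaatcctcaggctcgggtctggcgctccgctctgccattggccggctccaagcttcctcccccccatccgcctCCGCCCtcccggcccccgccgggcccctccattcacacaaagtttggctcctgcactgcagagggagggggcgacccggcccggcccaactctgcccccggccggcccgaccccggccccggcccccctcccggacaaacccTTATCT
Kcns1, chr3:173262347-173262596, minus strand: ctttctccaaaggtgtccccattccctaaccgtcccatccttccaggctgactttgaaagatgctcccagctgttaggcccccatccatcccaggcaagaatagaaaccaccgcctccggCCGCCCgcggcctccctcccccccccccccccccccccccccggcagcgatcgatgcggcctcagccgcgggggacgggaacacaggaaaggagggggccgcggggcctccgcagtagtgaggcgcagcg

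The motifs searched on both strands were the GC box GGGCGG, the E-box CACGTG, the cAMP response element TGACGTCA, the AP-1 site TGANTCA, the GATA site AGATAA and the TATA box TATAAA. The Kcne1 window held 1 AP-1 site and 1 GATA site, the Kcng3 and Kcnip2 windows 2 GC boxes each, the Kcns1 window 1 GC box, and the Kcnj10 window 2 GC boxes and 2 GATA sites. Among all 33469 windows of that length, 30.5% held a GC box, 6.34% an AP-1 site, 10.3% a GATA site, 12.9% a TATA box, 5.59% an E-box and 1.59% a cAMP response element. Of the 86 Kcn genes, 56 matched a window. Their 62 windows held a GC box in 48.4%, a GATA site in 9.68% and a TATA box in 3.23%, with a median GC content of 59.6% against 51.2% over all windows. A match is a description of these letters only.

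After 6 h the Kcn genes that were called were lower than untreated, with 1 exception. At concentration 1 it was 6 of 55, all lower, against 8.17% of all genes in either direction and 6.35% lower: Kcne1, Kcnk3, Kcnk12, Kcnj10, Kcna1 and Kcnn4. At 1/5 it was Kcne1 alone, lower, against 1.12% of all genes in either direction and 0.944% lower. At 1/25 it was 10 lower and 1 higher, against 8.85% of all genes lower, 2.71% higher and 11.6% in either direction. The 10 were the same 6 with Kcnip2, Kcne2, Kcng3 and Kcns1, and the 1 higher was Kcnh3, saturated on every array. Without untreated replicate 1 none of the 55 was called in any of these 3 comparisons, and without the scan day term the counts were 0 at concentration 1, 3 at 1/5 and 4 at 1/25. All 3 arrays of 1/5 were scanned on the second day and both untreated arrays on the first. That comparison therefore rests on the day difference measured in the other 6 h groups. Groups did not overlap, with celecoxib lower, for 14 of 55 at 1/25, 17 at 1/5 and 10 at concentration 1, against 19.1%, 31.2% and 16.8% of all genes, and with celecoxib higher for 2, 6 and 2, against 10.5%, 20.2% and 10.4%.

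Kcne1, the small accessory subunit that slows the delayed rectifier channel of Kcnq1, was the gene called at all 3 concentrations. It read -5.45, -3.45 and -3.92 at 1/25, -3.79, -3.85 and -3.96 at 1/5, and -5.26, -3.59 and -2.71 at concentration 1, against -1.76 and -2.93 on the untreated arrays. Every 6 h array of 1/25 and 1/5 lay below both untreated arrays, and 1 array of concentration 1, scanned on the second day, lay between them. The log2 differences were -3.08 ± 0.56 at 1/25 (adjusted p = 0.00665), -3.25 ± 0.65 at 1/5 (adjusted p = 0.0333) and -2.09 ± 0.50 at concentration 1 (adjusted p = 0.0217). The scan day term was 1.74 ± 0.45, with the second day higher. Without the scan day term the differences were -1.93, -1.52 and -1.51 in the same order. None was then called, with adjusted p of 0.0735, 0.157 and 0.23. Within the first scan day, with 1 array at 1/25 and 2 at concentration 1, the difference was -3.10 at 1/25. At concentration 1 it was -2.08 (adjusted p = 0.0649). Its partner Kcnq1 read between -4.35 and -1.67 over the 9 arrays of 6 h, with a median of -3.45, against -2.34 and -4.60 on the untreated arrays, so those groups overlapped and no difference was called.

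Kcnip2, the calcium-binding subunit that brings Kv4 pore subunits of the transient outward current to the surface, read -6.64, -4.25 and -7.59 at 1/25 for 6 h, against -3.18 and -2.66 on the untreated arrays. All 9 arrays of 6 h lay below both untreated arrays, and 3 of those 9 were well above background. The difference at 1/25 was -3.79 ± 1.08 (adjusted p = 0.0365). At concentration 1 no array of 6 h was well above background, and the untreated level was at least 3.73-fold higher, with an adjusted p of 0.0571. The probe passed the filter through the untreated arrays alone. Its partner Kcnd3, a Kv4 pore subunit, read from -1.68 to 0.75 over the 9 arrays of 6 h, with a median of -0.69, against -0.92 and 0.61 on the untreated arrays. That probe differed between the days. The 3 arrays of 6 h from the first day read 0.35 to 0.75 and the 6 from the second day -1.68 to -0.53. The array's position for the Kcnd3 probe lies on chromosome 3, another chromosome than the gene in RefSeq, and the same holds for the Kcnj3 probe, on chromosome 8.

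Kcne2, a relative of Kcne1 that joins several voltage-gated pore subunits, read -2.85, -1.73 and -2.93 at 1/25 for 6 h, against -1.76 and -1.64 on the untreated arrays, and the groups overlapped by 1 array of the second day. The fitted difference was -1.44 ± 0.35 (adjusted p = 0.0211), and without the scan day term it was -0.8 (adjusted p = 0.188). On the first scan day, with 1 array at 1/25, it was -1.15. Kcng3 and Kcns1 encode silent pore subunits that alter other voltage-gated channels. Kcng3 read -5.73, -5.70 and -6.56 at 1/25 for 6 h, none well above background, against -4.43 and -3.81 on the untreated arrays, which were at least 2.14-fold higher (adjusted p = 0.0292). Kcns1 read -4.17, -2.26 and -1.94 there, against -1.59 and -2.72 on the untreated arrays, with overlap, and its fitted difference was -1.73 ± 0.48 (adjusted p = 0.0328). The reading of -4.17, the one from the first scan day, was not well above background. The scan day term for this probe was 1.64 ± 0.38, with the second day higher. Without that term the difference was -0.63 (adjusted p = 0.502).

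Kcna1, a delayed rectifier pore subunit known mainly from nerve, read -6.17, -4.43 and -5.79 at 1/25 and -4.56, -5.15 and -5.50 at concentration 1 for 6 h, against -2.64 and -3.31 on the untreated arrays. The groups did not overlap. It was lower by -2.62 ± 0.70 at 1/25 (adjusted p = 0.0286), and at concentration 1 the untreated level was at least 3.60-fold higher (adjusted p = 0.0439). The probe passed the filter through the untreated arrays alone, which favours that direction. Only 1 of the 3 arrays at 1/25 was well above background. The other Kcna1 probe, on no array well above background, had differences of the opposite sign, 0.20 at 1/25 and 0.85 at concentration 1.

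Of the tandem-pore genes, Kcnk3, an acid-sensitive background channel, read -3.65, -1.47 and -2.73 at 1/25 and -4.60, -3.77 and -2.08 at concentration 1 for 6 h, against -1.64 and -2.24 on the untreated arrays. The 3 arrays of 6 h from the first day, at -4.60 to -3.65, lay below both untreated arrays of that day, and the 6 from the second day, at -2.73 to -1.47, overlapped them. The fitted differences were -1.89 ± 0.43 at 1/25 (adjusted p = 0.0153) and -2.15 ± 0.38 at concentration 1 (adjusted p = 0.00583). Without the scan day term they were -0.67 and -1.54, with adjusted p of 0.48 and 0.194. Within the first day, with 1 array at 1/25 and 2 at concentration 1, they were -1.71 and -2.25 (adjusted p = 0.01 at concentration 1).

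Kcnk12, a tandem-pore subunit that passes little current on its own, read 0.18, 1.56 and 0.80 at 1/25 and 0.55, 0.56 and 1.80 at concentration 1 for 6 h, against 1.84 and 1.55 on the untreated arrays. The first-day arrays of 6 h again lay lowest, at 0.18 to 0.56, below both untreated arrays. Differences were -1.60 ± 0.30 at 1/25 (adjusted p = 0.00733) and -1.10 ± 0.26 at concentration 1 (adjusted p = 0.0223). Without the scan day term they were -0.85 and -0.72, with adjusted p of 0.166 and 0.334. The probe was saturated on 3 of 20 arrays. The scan day term was 1.83 ± 0.34 for Kcnk3 and 1.13 ± 0.24 for Kcnk12, with the second day higher.

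Kcnj10, an inward rectifier best known from glia, read -6.17, -5.40 and -4.93 at 1/25 and -6.12, -6.45 and -4.31 at concentration 1 for 6 h, against -4.65 and -4.14 on the untreated arrays, 1 of which was well above background. The first-day readings of -6.17, -6.12 and -6.45 were not well above background, and the groups overlapped at concentration 1. The fit gave -2.10 ± 0.46 at 1/25 (adjusted p = 0.0136) and -1.73 ± 0.41 at concentration 1 (adjusted p = 0.0211). The scan day term for the probe was 1.49 ± 0.37, with the second day higher. Without that term neither was called, with adjusted p of 0.186 and 0.244. With quantile scaling neither was called, with adjusted p of 0.293 and 0.265. The probe passed the filter through celecoxib 1/5 for 6 h alone. Of 4 glial markers, 3 of them tested, Sox10 was lower in the same comparisons, by -2.45 ± 0.39 at 1/25 and -2.35 ± 0.34 at concentration 1, no other glial marker was called there, and S100b was well above background on no array. Summed over the 4, the level as a percentage of the 75th percentile was 16.0 to 33.4 at 1/25 and 12.9 to 23.0 at concentration 1, against 25.1 to 41.7 untreated, and the part of glial cells in the Kcnj10 difference was not tested.

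Kcnn4, known from immune and other non-excitable cells, read -0.79, 0.27 and -0.72 at 1/25 and -0.60, -0.99 and 0.17 at concentration 1 for 6 h, against 0.41 and 0.15 on the untreated arrays. Its differences were -1.20 ± 0.32 at 1/25 (adjusted p = 0.0288) and -1.01 ± 0.28 at concentration 1 (adjusted p = 0.0419). Without the scan day term they were -0.7 and -0.75, with adjusted p of 0.195 and 0.261. Of 5 macrophage and leukocyte markers, 4 of them tested, Cd14 was lower at 1/25, by -1.5 ± 0.37, and Itgam was well above background on no array. Their summed level was 161 to 323 at 1/25 and 214 to 279 at concentration 1, against 360 to 411 untreated. The markers did not all go one way: the median of the 4 tested was -0.43 at 1/25 and 0.13 at concentration 1, and Cd68 had 0.93 ± 0.52 and 0.91 ± 0.46, not called. The part of these cells in the Kcnn4 difference was not tested. The one gene called higher, Kcnh3 at 1/25, was saturated on all 20 arrays. Its fitted 0.76 ± 0.24 therefore gives neither a fold nor a direction. The difference was 0.13 without the scan day term (adjusted p = 0.848) and 0.28 with quantile scaling (adjusted p = 0.379). At 1/25 Kcnh3 read 3.18, 1.84 and 2.46, against 2.26 and 2.46 on the untreated arrays, and the groups overlapped.

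**Figure D2:**
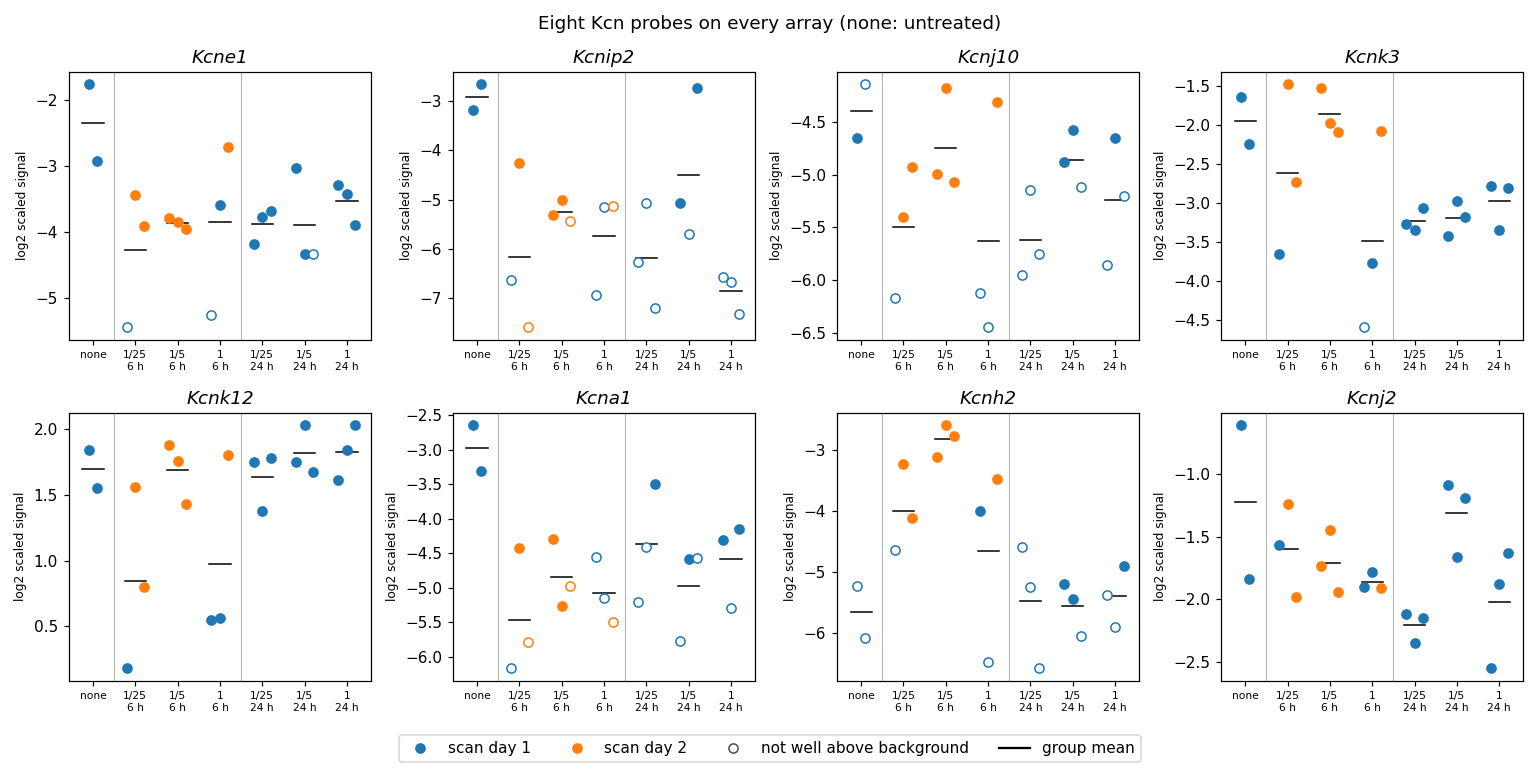
Points are single arrays, on the log2 scaled signal axis of each probe, by group from untreated (none) through 6 h to 24 h with concentration from low to high, and the line is the group mean. Open points are not well above background, and the orange points of the second scan day sit above the blue ones of the same 6 h group for Kcnk3 and Kcnj10.

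The other potassium channels of the cardiac action potential were not called at any single concentration after 6 h. Kcnh2, the pore subunit of the rapid delayed rectifier, read -6.46 to -2.60 with a median of -3.48 over the 9 arrays of 6 h, against -5.22 and -6.07 on the untreated arrays, neither of them well above background. The 3 arrays of 1/5, at -3.12, -2.60 and -2.78, all scanned on the second day, lay at least 3.70-fold above the untreated level by plain group means. The fit with scan day gave a smaller 1.46 ± 0.88 (adjusted p = 0.349), and the gene passed the filter through that group alone. Kcnj12, of the resting current, had a median of 0.08 over the 9 arrays of 6 h, from -0.91 to 0.57, against 1.35 and 0.28 untreated, and differences of -1.16 to -1.55 with adjusted p from 0.0583 to 0.117. Kcnj2, its companion, ran from -1.98 to -1.24 with a median of -1.78, against -0.61 and -1.84 untreated. Kcna4, of the slowly recovering transient outward current, ran from -2.57 to -0.85 with a median of -1.90, against -3.01 and -2.35 untreated, and its differences lay within 0.41 of 0. Kcna5 of the ultra-rapid current, Kcnj3, Kcnj5, Kcnj8 and Kcnj11 overlapped untreated at concentration 1 and were not called. At 1/5 and 1/25 all Kcnj3 and Kcnj8 readings of 6 h lay below both untreated arrays. With the scan day term Kcnj3 had 0.57 at 1/5 and -0.26 at 1/25, and Kcnj8 had 0.03 ± 0.5 at 1/25. The largest falls among bright probes without overlap did not pass at concentration 1 or 1/25. Kcnk9, an acid-sensitive tandem-pore channel, was at -1.20 ± 0.49 at concentration 1 (adjusted p = 0.121), and Kcna2, a delayed rectifier pore subunit, at -0.90 ± 0.52 at 1/25 (adjusted p = 0.226). Other probes of Kcnd3, Kcng2 and Kcnj3 had the opposite sign in some comparisons with untreated. All 9 arrays of 6 h lay below both untreated arrays for Kcna1, Kcna2, Kcnc1, Kcng3, Kcnh1, Kcnip2 and Kcnn1, 7 of 55 against 8.42% of all genes, and no Kcn gene lay above both, against 4.80%. Among these, Kcna1, Kcnc1 and Kcnip2 passed the filter through the untreated arrays alone, which favours that direction.

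**Figure D3:**
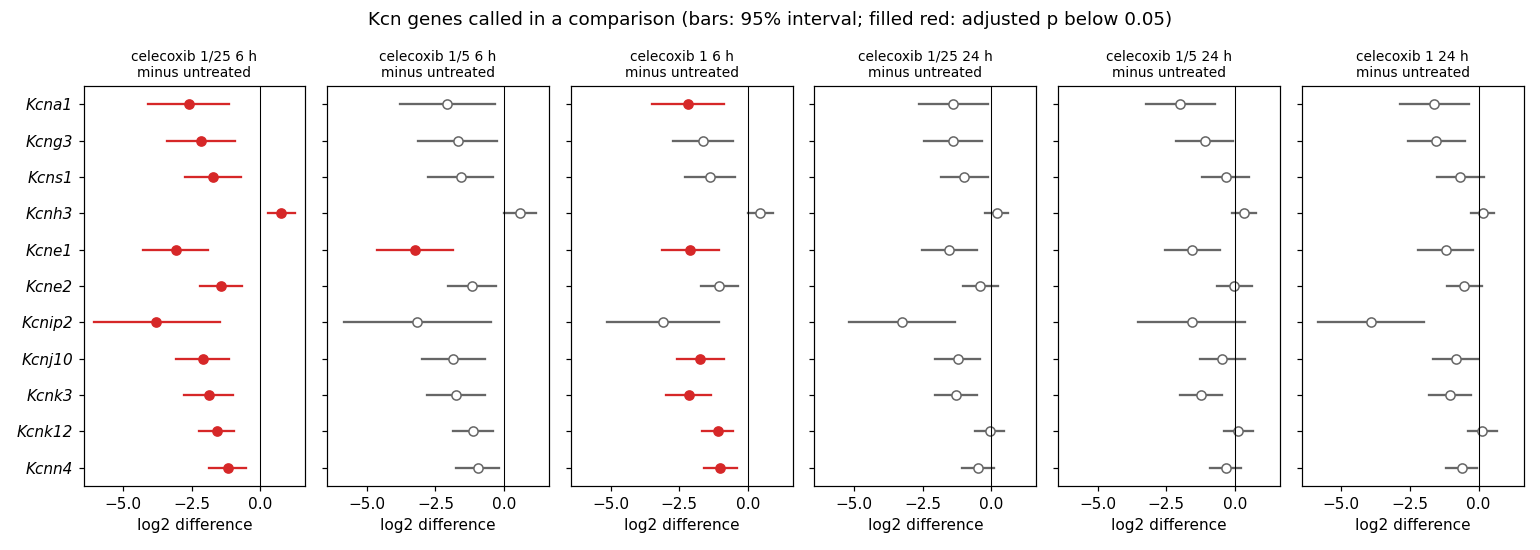
Points are fitted log2 differences from untreated, and bars are 95% intervals, for the Kcn genes called in any comparison, with a panel for each concentration at 6 h and then at 24 h. Called differences are filled and red, and they lie in the 6 h panels, with Kcne1 at all 3 concentrations and Kcnip2 with the widest bars.

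After 24 h no Kcn gene was called at any concentration, against 0.858% of all genes at 1/25, 1.39% at 1/5 and 0.451% at concentration 1. An unadjusted p below 0.05 was reached by 12 of 55 at 1/25, 9 at 1/5 and 12 at concentration 1, against 15.6%, 21.1% and 15% of all genes. All the arrays in these comparisons shared the first scan day. No 24 h array shared a slide with an untreated array, so slide and treatment cannot be told apart there. Groups did not overlap, with celecoxib lower, for 18 of 55 at 1/25 (32.7%), 17 at 1/5 (30.9%) and 19 at concentration 1 (34.5%), against 19.1%, 19.3% and 16.9% of all genes. With celecoxib higher it was 2, 2 and 1 of 55, against 14.1%, 20.9% and 11.7% of all genes. Of the 86 without any filter, 64, 68 and 73 lay below 0 at 1/25, 1/5 and concentration 1 (74.4%, 79.1% and 84.9%, against 57.9%, 58.1% and 58.4% of all genes).

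Genes below both untreated arrays on all 9 arrays of 24 h were Kcna1, Kcnc1, Kcne1, Kcng3, Kcnj15, Kcnk3, Kcnk9, Kcnmb2 and Kcnn4, 9 of 55 against 8.04% of all genes tested, and no Kcn gene lay above both, against 4.25%. Kcna1, Kcnc1 and Kcng3 were below both at 24 h and at 6 h, on all 18 celecoxib arrays, 3 of 55 against 3.44% of all genes. Kcna1 and Kcnc1 passed the filter through the untreated arrays alone, which favours that direction, so these counts are descriptions only. Kcnk3 read from -3.43 to -2.78 with a median of -3.18 over the 9 arrays of 24 h, against -1.64 and -2.24 untreated. Its groups were tight, with differences of -1.29 ± 0.36 at 1/25, -1.25 ± 0.36 at 1/5 and -1.04 ± 0.36 at concentration 1, and adjusted p of 0.103, 0.0841 and 0.194. Kcne1 ran from -4.33 to -3.04 with a median of -3.78, against -1.76 and -2.93 untreated, and differences were -1.54, -1.55 and -1.19 at 1/25, 1/5 and concentration 1. Kcnip2 read -7.31 to -5.07 on 8 arrays and -2.74 on replicate 3 of 1/5, against -3.18 and -2.66 untreated. Kcnk9 ran from -4.42 to -3.21, against -2.49 and -3.05 untreated, with a difference of -1.43 ± 0.47 at concentration 1 (adjusted p = 0.166). At concentration 1 no Kcnip2 reading was well above background, and the untreated level was at least 5.31-fold higher (adjusted p = 0.0758).

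The mean of the 3 concentrations was also set against untreated, a contrast added after the data were seen. At 24 h it called none of 55, against 2.43% of all genes, with adjusted p of 0.0531 for Kcnk3 (-1.19 ± 0.31) and for Kcnc1 (-2.54 ± 0.66), a fast voltage-gated pore subunit, and 0.0592 for Kcnip2 (-2.92 ± 0.78). Kcnc1 and Kcnip2 passed the filter through the untreated arrays alone, which favours their direction. Each was well above background on 2 of the 9 arrays of 24 h, so the sizes are those of mostly background readings. At 6 h it called 11 of 55, all lower, against 11.4% of all genes in either direction and 8.07% lower, and these were the 10 of 1/25 with Kcnj12 (-1.35 ± 0.39, adjusted p = 0.0403). Without untreated replicate 1 it called none at either time.

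The shift depended on which untreated array was used. The median difference of the 55 at 24 h was -0.31 at 1/25, -0.34 at 1/5 and -0.59 at concentration 1, against -0.04, -0.02 and 0.01 over all genes, and for the pooled contrast it was -0.44, or -0.16 without untreated replicate 1 and -0.59 without untreated replicate 2. Untreated replicate 1 exceeded replicate 2 for 36 of the 55, with a median gap of 0.54, against 50.9% and 0.02 for all genes. The Kcn genes were dim: with the genes tested split by mean level into 4 bins of equal size, 29 of 55 lay in the dimmest. In that bin the pooled median at 24 h was -0.64 for the Kcn genes and -0.54 for all genes, and untreated replicate 1 exceeded replicate 2 by a median of 0.97 for the Kcn genes and 0.71 for all genes. In the other bins, from dim to bright, the pooled median at 24 h was -0.17 for 10 Kcn genes and -0.21 for all genes, -0.49 for 9 and 0.05 for all, and -0.16 for 7 and 0.22 for all.

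**Figure D4:**
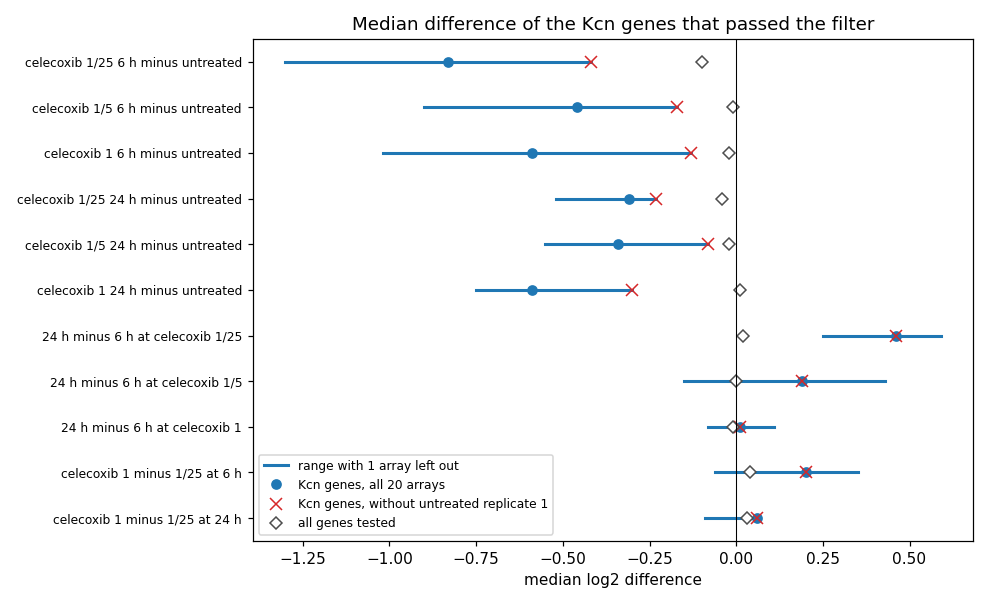
The horizontal axis is the median log2 difference, with a row for each comparison. Filled circles are the 55 Kcn genes, diamonds all genes tested, lines the range when 1 array is left out, and crosses the value without untreated replicate 1, which lie nearer to 0 than the circles in all 6 rows against untreated.

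Between 24 h and 6 h, Kcnk12 was the Kcn gene called. It read 1.75, 1.38 and 1.78 after 24 h at 1/25, against 0.18, 1.56 and 0.80 after 6 h, a difference of 1.54 ± 0.27 (adjusted p = 0.0131), where 2.23% of all genes were called and 1.67% were higher. At concentration 1 it read 1.61, 1.84 and 2.03 after 24 h, against 0.55, 0.56 and 1.80 after 6 h, a difference of 1.23 ± 0.24 (adjusted p = 0.019), where 1.4% of all genes were called and 0.912% were higher. The groups overlapped through the second-day arrays of 6 h. Within the first day, with 1 array of 6 h at 1/25 and 2 at concentration 1, the differences were 1.46 and 1.28. The adjusted p at concentration 1 was 0.0343. Without the scan day term neither was called, with adjusted p of 0.205 and 0.419. At 1/5 no Kcn gene was called, against 0.0252% of all genes, and 9 of 55 reached an unadjusted p below 0.05, against 9.33% of all genes. Other bright probes without overlap did not pass: Kcna6, a delayed rectifier pore subunit, was 2.68 ± 0.84 higher after 24 h at 1/25 (adjusted p = 0.103), and Kcnk2, a mechanosensitive tandem-pore channel, had -0.75 ± 0.25 at concentration 1 (adjusted p = 0.152), with a probe saturated on 4 of 20 arrays. The largest rise of that kind at 1/5 was 0.80 ± 0.40 for the accessory subunit Kcnab3 (adjusted p = 0.566).

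Between concentrations 1 and 1/25 no Kcn gene was called at 6 h, where no gene of the array was, or at 24 h, against 0.00721% of all genes. An unadjusted p below 0.05 was reached by 5 and 2 of the 55, against 5.55% and 4.89% of all genes. The median difference was 0.20 at 6 h and 0.06 at 24 h, against 0.04 and 0.03 over all genes. A missed threshold does not show that the concentrations act alike.

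By subfamily, at 1/25 for 6 h, accessory subunits were called in 3 of 5 tested (median -1.44), voltage-gated pore subunits in 3 lower and 1 higher of 26 (median -0.85), tandem-pore genes in 2 of 7 (median 0.06), inward rectifiers in 1 of 11 (median -0.38) and calcium- or sodium-activated genes in 1 of 6 (median -0.99), against 8.85% of all genes called lower, 2.71% called higher and a median of -0.10. The 3 accessory genes were Kcne1, Kcne2 and Kcnip2, the last of which passed the filter through the untreated arrays alone. The pore subunit called higher was Kcnh3, saturated on every array. After 6 h at concentration 1 and 1/5, 1 of 5 accessory genes was called lower in each, against 6.35% and 0.944% of all genes. After 24 h none was, with medians of -0.41, -0.02 and -0.52 at 1/25, 1/5 and concentration 1. Without untreated replicate 1 no Kcn gene was called at 6 h.

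Of 13 tested partners and regulators of these channels none was called at 6 h, against 11.6%, 1.12% and 8.17% of all genes at 1/25, 1/5 and concentration 1, and at 24 h 1 was, at 1/25, against 0.858% of all genes: Abcc9, the sulphonylurea receptor subunit of the ATP-sensitive channel, at 1.34 ± 0.27 (adjusted p = 0.0304). Its pore partners Kcnj8 and Kcnj11 were at 0.37 ± 0.42 and -0.63 ± 0.35 there, neither called. Of 15 tested sodium, calcium and related channels of the same cells, Cacna1h, a T-type calcium channel, was lower after 6 h, by -1.54 ± 0.37 at 1/25 (adjusted p = 0.0196) and -1.42 ± 0.33 at concentration 1 (adjusted p = 0.0204), and no other was called. Their median was -0.15 at 1/25 and -0.04 at concentration 1 for 6 h, close to the medians of -0.10 and -0.02 over all genes.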

How the data were processed

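RNA of 20 arrays was read from deposited scanner files. Per the file headers they hold linear spot intensity, written by Agilent's software (Feature Extraction, version 9.5.3.1), with probe positions on rn3. The deposited value table is a linear ratio. Its mean over the untreated arrays was 1 for 99.9976% of probes, with scale otherwise unstated and column medians of 0.826 to 1.27. For the celecoxib arrays, its log2 values relative to untreated correlated with those of the scanner files at 0.9934 to 0.9982. The table served as an alternative.

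The processed signal was taken to log2 and scaled to the array's 75th percentile, without outlier spots, and spots of a probe were averaged. No pseudocount was used. One probe stood for each gene, and limma 3.58.1 in R 4.3.3 fitted 7 group means and scan day, with 12 residual degrees of freedom, 15.3 after moderation. P-values are two-sided, with Benjamini-Hochberg adjustment over all genes tested. The number of arrays limits precision. Of the 86 Kcn probes, 72 matched RefSeq by accession and 14 by symbol.

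Genes named were a list of 18 cardiac channel genes, every Kcn gene called, and per comparison the largest rise and fall among probes well above background in both groups without overlap. Members and lists were chosen with earlier results of these data known. Alternatives were the scan day term, slide as a random block, a replicate term, each scan day alone, normexp background (offset 50), quantile scaling, other filters, the mean of a gene's probes, the authors' table and leaving out each array. The fit was tested on simulated data. Some members are counted but not reported here by name.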

Additional observations from a re-analysis of the deposited data

Results flagged for a closer look

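Kcnk12, a tandem-pore channel subunit, differed between celecoxib arrays of 24 h and of 6 h by a direct test. The difference was 1.54 at concentration 1/25 and 1.23 at concentration 1, on the log2 scale. Some of these 6 h arrays, but no 24 h array, were scanned on the second day. Without the scan day term neither difference was called, with adjusted p of 0.205 and 0.419. The untreated arrays have no stated time, so time in culture and an effect of celecoxib cannot be told apart. Groups of 2 or 3 arrays are too small for a test of single outlying arrays.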

How the results depend on the processing

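Counts of Kcn genes called against untreated moved most. Without the scan day term they were 0, 3 and 4 at concentrations 1, 1/5 and 1/25 for 6 h, and for 24 h against 6 h they were 0, 4 and 0. With the filter at all 20 arrays they were 3, 0 and 5 at 6 h, and the authors' deposited values gave 3 and 0 at concentrations 1 and 1/5. No filter gave 0 and normexp 2 at 1/5, and quantile scaling 5 at 1/25. At 24 h normexp gave 1, 3 and 1 at 1, 1/5 and 1/25, and slide as a random block 1 at concentration 1. For 24 h against 6 h, normexp gave 0 at both concentrations 1 and 1/25. Scan day 1 alone leaves 1 array of 1/25 for 6 h, so no count is given there. Scan day 2 alone holds no untreated or 24 h array. Leaving out the 2 arrays that stood apart, an alternative chosen after seeing the data, gave 2, 0 and 2 at concentrations 1, 1/5 and 1/25 for 6 h, and 3 and 2 for 24 h against 6 h at concentrations 1 and 1/25. Kcnk3 at concentration 1 and Kcnk12 and Kcne2 at 1/25 stayed called there.

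Leaving out 1 array gave 0 to 13 calls at concentration 1, 0 to 5 at 1/5 and 0 to 18 at 1/25 for 6 h, 0 to 1, 0 to 1 and 0 to 2 for 24 h, 0 to 1 and 0 to 0 between concentrations, and 0 to 3, 0 to 0 and 0 to 5 for 24 h against 6 h at 1, 1/5 and 1/25. Without untreated replicate 1 the 6 h counts were 0. Without celecoxib 1 6 h replicate 1 the count at concentration 1 was 1, without celecoxib 1/25 6 h replicate 1 the count at 1/25 was 1, without untreated replicate 2 the count at concentration 1 was 12, and without celecoxib 1/25 6 h replicate 3 it was 13. At 1/25 it was 7 without celecoxib 1 6 h replicate 3 and 18 without 1/25 6 h replicate 2. At 1/5, leaving out any of its own arrays, celecoxib 1 6 h replicate 1 or 1/25 6 h replicate 2 gave 0, while it was 2 without 1 6 h replicate 2, 3 without untreated replicate 2 and 5 without 1/25 6 h replicate 3. For Kcnk12 between times, leaving out celecoxib 1 6 h replicate 1 or 2 or celecoxib 1 24 h replicate 2 ended the call at concentration 1, and leaving out 1/25 6 h replicate 1 ended it at 1/25. The cause was not tested. Same-numbered arrays deviated together with a mean correlation of -0.0208 over 57 pairs, 11 of them over 0.1, so the numbers were not taken to pair the arrays. With the replicate block the counts were 5, 0 and 10 at 1, 1/5 and 1/25 for 6 h, and 1, 0 and 1 for 24 h against 6 h. None of the named differences reversed in sign past the threshold. Signal over background limits the 31 Kcn genes that were not tested.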

Other observations

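Kcnmb1, the smooth muscle subunit of the large-conductance calcium-activated channel, spread widely over the arrays. It read -2.45, -3.29 and -6.34 at 1/25 for 6 h, -7.48, -5.74 and -7.42 at 1/5 and -5.39, -5.93 and -5.62 at concentration 1, against -1.36 and -3.53 on the untreated arrays, and it passed the filter through those alone. After 24 h at 1/25 it read -2.57, -5.70 and -3.10. Kcnmb1 was singled out after its values were seen, and it was not called in any comparison.

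Kcnk13, a tandem-pore subunit related to Kcnk12, read from -5.35 to -3.28 with a median of -4.29 over the 9 arrays of 6 h, 8 of them well above background, against -5.08 and -6.24 on the untreated arrays, neither well above background. It was at least 1.33-fold higher at concentration 1 for 6 h (adjusted p = 0.0938) and was not called in any comparison. Kcnk13 was also singled out after its values were seen.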
